A study of Mus musculus with 6 samples.

Results

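Liver RNA of old WT and CgA-KO mice was examined for genes that mark the hepatocytes around the central vein of the lobule or that respond to Wnt signaling there. They were Glul, Oat, Slc1a2, Lgr5, Rnf43, Znrf3, Axin2, Tbx3, Lhpp and Rgn, chosen by symbol as 10 of the 32212 rows of a gene count table, and each symbol named 1 row. CgA-KO mice lack chromogranin A (CgA), the prohormone that the gene Chga encodes. All 6 animals were male C57BL/6 mice of 2 yr kept on normal chow, 3 WT and 3 CgA-KO, with 1 poly(A)-selected liver library per mouse. The comparison asked how the loss of CgA affects the liver transcriptome in old mice, and how the deleted allele was made is not given in the sources used here.

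The liver lobule is zoned. Blood enters at the portal triads and leaves by the central vein, and hepatocytes along this path carry out different tasks. Endothelial cells of the central vein release Wnt ligands and R-spondins, which stabilize beta-catenin in the hepatocytes next to them and keep the pericentral program on. Pericentral cells scavenge the ammonia that urea synthesis leaves behind by making glutamine, while periportal cells make urea and glucose. The pathway limits itself, since several of its target genes encode proteins that remove its receptors or degrade beta-catenin.

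Total counts ran from 10558616 to 31087453 in the WT libraries and from 19223595 to 28672817 in the CgA-KO libraries, and 3 counts, the least taken as detectable, stood for 0.0965 to 0.284 CPM, counts scaled to a fixed library total. Chga had 0 counts in all 6 libraries, so it does not check the genotype labels. After a filter on low counts, 13867 genes were tested with edgeR's quasi-likelihood test and Benjamini-Hochberg adjustment over all of them. At an adjusted p-value under 0.05, 12.4% of the genes were called, 8.6% higher and 3.84% lower in CgA-KO livers. Of these calls 69.1% were higher, and this share rose to 86.6% with scaling by library size alone, which moved the median over all genes from -0.01 to 0.26 (log2). Levels are CPM with TMM normalization (trimmed mean of M values), errors are SD over 3 livers, and the standard error (SE) of a log2 fold change is an approximation from the F statistic. The study's methods name 3 WT and 3 CgA-KO mice and the labels number the replicates, so each library was taken as a separate mouse. A comparison of 3 livers against 3 cannot give an exact permutation p-value under 0.1.

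All 10 genes passed the filter. Rnf43 was lower in CgA-KO livers, and it was the only one of the 10 that edgeR called, with 0 called higher and 1 called lower (1 of 10, against 12.4% of all genes tested). At an unadjusted p-value under 0.05 there were 5, with Oat, Axin2 and Lhpp higher and Rnf43 and Rgn lower, against 29.1% of all genes tested. The CgA-KO and WT livers did not overlap in 5 genes, Oat and Axin2 on the higher side and Rnf43, Tbx3 and Rgn on the lower. Of all genes 33.6% had no overlap, 19% on the higher and 14.6% on the lower side. The median log2 fold change of the 10 genes was 0.20, beside -0.01 over all genes tested. The pericentral and Wnt target genes therefore did not move as a block, and Glul, the classic marker of the last hepatocytes before the central vein, overlapped between the genotypes.

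**Figure D1:**
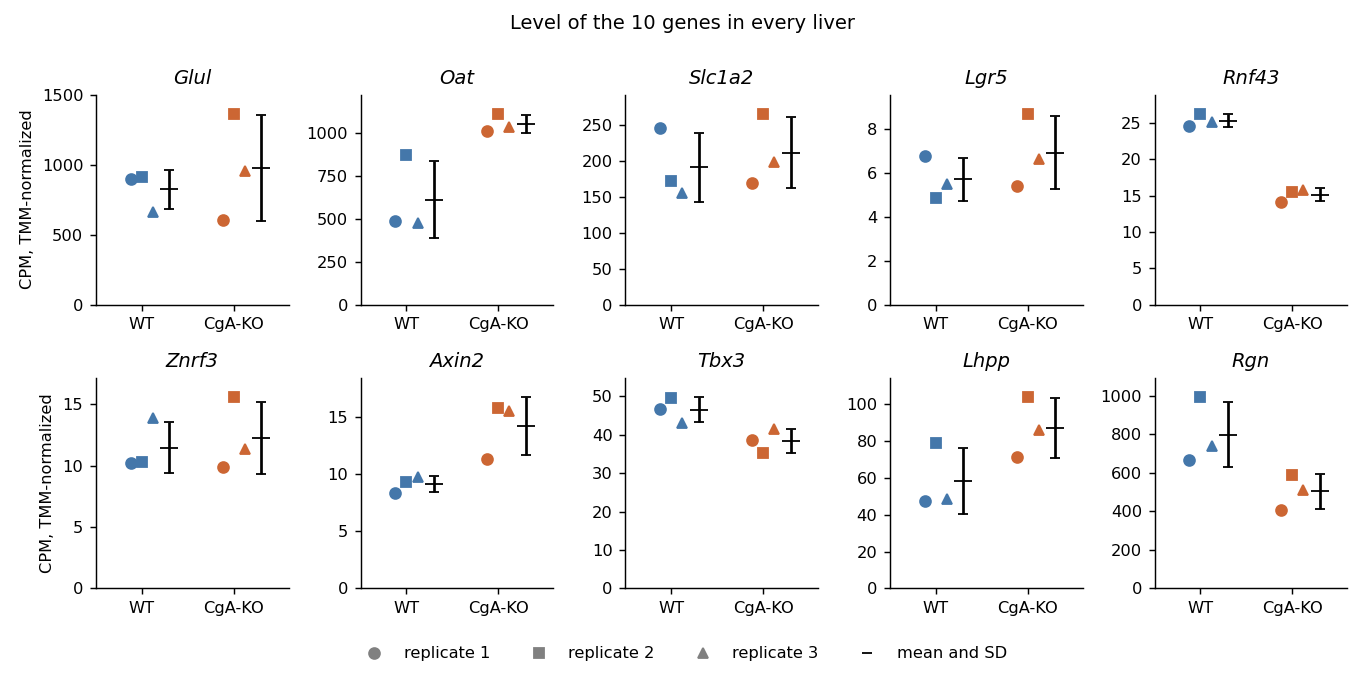
Level of the 10 genes in CPM (TMM-normalized, linear axes from 0) in every liver, with WT in blue, CgA-KO in orange, 1 symbol shape per replicate number, and black bars for the mean and SD of 3 livers. The Rnf43 points of CgA-KO lie between 14.1 and 15.8 CPM, below all WT points, while those of Glul spread from 604 to 1364 CPM and enclose the WT points.

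The enzymes and the transporter of nitrogen handling differed among themselves. Glul, which encodes glutamine synthetase, lies on chromosome 1 of GRCm38 from 153899944 to 153909723 on the plus strand. WT replicates 1, 2 and 3 held 896, 913 and 659 CPM, against 604, 1364 and 956 CPM in CgA-KO replicates 1, 2 and 3. The lowest and the highest liver were both CgA-KO, and the means of 823 ± 142 and 975 ± 381 CPM differed by less than the spread between livers (log2 fold change 0.24, SE 0.33, 95% interval from -0.49 to 0.98, edgeR adjusted p = 0.666). Without CgA-KO replicate 2 the log2 fold change was -0.04. The interval leaves room for a fold change in either direction, so no difference was detectable with 3 livers per genotype.

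Oat encodes ornithine aminotransferase, a mitochondrial enzyme that passes the amino group of ornithine to 2-oxoglutarate and yields glutamate. It lies on chromosome 7 from 132557478 to 132576398 on the minus strand. WT livers held 489, 870 and 477 CPM, and CgA-KO livers held 1010, 1112 and 1033 CPM. All CgA-KO livers were above all WT livers and close to each other, and WT replicate 2 stood well above the other WT livers. The means were 612 ± 224 and 1052 ± 53.7 CPM, a log2 fold change of 0.78 (SE 0.29) that edgeR did not call (adjusted p = 0.113). It did call the gene without WT replicate 2 (1.12, adjusted p = 0.0353), and so did DESeq2 (0.75, adjusted p = 0.0479). Over all alternatives the adjusted p ran from 0.0189 to 0.359.

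Slc1a2 encodes a glutamate transporter of the plasma membrane that pericentral hepatocytes share with astrocytes. The gene lies on chromosome 2 from 102658659 to 102790784 on the plus strand. Its level was 245, 172 and 155 CPM in WT against 169, 265 and 198 CPM in CgA-KO livers. The genotypes overlapped, and the log2 fold change of 0.15 (SE 0.26, 95% interval from -0.44 to 0.74) was not called (edgeR adjusted p = 0.756) and was -0.02 without CgA-KO replicate 2.

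Lhpp and Rgn are pericentral genes outside nitrogen handling. Lhpp encodes a phosphatase that removes phosphate from histidine, and it lies on chromosome 7 from 132610638 to 132706420 on the plus strand, 34.2 kb from Oat. WT livers held 47.7, 78.9 and 48.7 CPM and CgA-KO livers 71.3, 104 and 86.1 CPM. WT replicate 2 was above CgA-KO replicate 1, the only overlap, and replicate 2 of each genotype was its highest. The log2 fold change was 0.57 (SE 0.25, edgeR adjusted p = 0.169), and without WT replicate 2 it was 0.85 (adjusted p = 0.0568). It was called with library size alone (0.89, adjusted p = 0.031). In Oat and Lhpp alike, WT replicate 2 was the WT liver nearest to CgA-KO. The TMM factor of this library was 0.756, against 0.935 to 1.12 in the others, and a smaller factor raises all CPM values of a library. Its high levels therefore rest in part on the scaling.

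Rgn, on chromosome X from 20549787 to 20562089 on the plus strand, encodes regucalcin, a calcium-binding lactonase of vitamin C synthesis that is also known as senescence marker protein because it falls with age in rat liver. Its level was 667, 992 and 737 CPM in WT against 409, 591 and 512 CPM in CgA-KO livers, so every CgA-KO liver was below every WT liver. The means were 799 ± 171 and 504 ± 91.3 CPM, a log2 fold change of -0.66 (SE 0.26, 95% interval from -1.25 to -0.08). edgeR did not call it (adjusted p = 0.128), while DESeq2 did (-0.69, adjusted p = 0.0402). Over all alternatives its log2 fold change stayed between -0.75 and -0.37. Gulo, which encodes the enzyme that completes vitamin C synthesis after Rgn and is itself pericentral, was at 251 ± 49.2 CPM in WT against 266 ± 98.5 CPM in CgA-KO (edgeR adjusted p = 0.887). Of 4 genes of that route besides Rgn, edgeR called 0 (1 was at an unadjusted p-value under 0.05, and DESeq2 called 1), and Akr1a1, an aldehyde reductase and the one with the highest mean over all 6 livers, had a log2 fold change of -0.18.

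The genes that set receptor levels and feed back on the pathway also differed among themselves. Rnf43 and Znrf3 encode ubiquitin ligases of the cell membrane that clear Frizzled receptors, Lgr5 encodes a receptor for R-spondins, which block those ligases, and Axin2 encodes a scaffold of the complex that degrades beta-catenin. All 4 are known Wnt targets. Rnf43 lies on chromosome 11 from 87662722 to 87735539 on the plus strand. WT livers held 24.5, 26.3 and 25.2 CPM, from 274, 618 and 595 counts, and CgA-KO livers held 14.1, 15.5 and 15.8 CPM, from 304, 489 and 353 counts. Within each genotype the livers lay within 1.12-fold of each other, and the genotypes were well apart. The means were 25.3 ± 0.884 and 15.1 ± 0.910 CPM, which made WT 1.67-fold higher (log2 fold change -0.74, SE 0.16, edgeR adjusted p = 0.0205). The call depended on the scaling and on 5 of the 6 libraries. With size factors from hepatocyte markers the log2 fold change was -0.58 (adjusted p = 0.336), and with library size alone it was -0.47 (adjusted p = 0.144). Leaving out WT replicate 2 or 3, or CgA-KO replicate 1, 2 or 3, gave an adjusted p of 0.0546, 0.0975, 0.0957, 0.0514 and 0.0565, while the log2 fold change with each library left out in turn stayed between -0.75 and -0.66.

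Axin2, on the same chromosome from 108920349 to 108950783 on the plus strand, was on the opposite side. WT livers held 8.33, 9.27 and 9.70 CPM, and CgA-KO livers held 11.3, 15.8 and 15.5 CPM. No CgA-KO liver reached down to a WT liver, and CgA-KO replicate 1 was the nearest. The means were 9.10 ± 0.701 and 14.2 ± 2.52 CPM, a log2 fold change of 0.64 (SE 0.21) that was not called (edgeR adjusted p = 0.0825). Among the alternatives it was called with library size alone (adjusted p = 0.044), and its log2 fold change ran from 0.59 to 0.91.

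As a ratio within a liver does not depend on scaling, Axin2 was also set against Rnf43, a pair chosen after their values were seen. The log2 ratio of Axin2 to Rnf43 counts was -1.56, -1.50 and -1.38 in WT replicates 1, 2 and 3, and -0.32, 0.02 and -0.03 in CgA-KO replicates 1, 2 and 3. Axin2 counts were well under those of Rnf43 in WT and near them in CgA-KO livers. Genes without overlap on opposite sides must give a ratio that separates the genotypes, so these values are a description only.

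Upstream sequence bears on genes that answer to the same signal. The 250 bases before each RefSeq start were therefore examined in promoter windows on GRCm38.p6 for Glul, Slc1a2, Oat, Rnf43 and Axin2 (5 of 10 genes, 6 starts). Those of the other 5 genes were not analysed here. The letters searched were CTTTGAT, then its variant CTTTGAA, and likewise the forms CTTTGTT as well as CTTTGTA, all of the kind of site that the TCF/LEF partners of beta-catenin bind. They were searched on both strands in the window that also takes in 50 bases after the start, and 16.9% of all 32851 promoters held at least 1 of them. The sequences of Axin2 and Rnf43 are shown because these Wnt targets lay on opposite sides between the genotypes, and that of Slc1a2 because it alone held a match. They are written 5′ to 3′ on the strand of the gene, with a match in capitals. Axin2 is chr11:108920099-108920348, Rnf43 is chr11:87662837-87663086, and Slc1a2 is chr2:102706188-102706437, all on the plus strand.
Axin2: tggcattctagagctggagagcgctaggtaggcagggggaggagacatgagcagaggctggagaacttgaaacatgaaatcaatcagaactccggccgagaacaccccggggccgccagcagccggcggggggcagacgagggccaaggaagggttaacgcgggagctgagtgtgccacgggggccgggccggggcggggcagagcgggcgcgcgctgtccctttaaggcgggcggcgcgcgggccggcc
Rnf43: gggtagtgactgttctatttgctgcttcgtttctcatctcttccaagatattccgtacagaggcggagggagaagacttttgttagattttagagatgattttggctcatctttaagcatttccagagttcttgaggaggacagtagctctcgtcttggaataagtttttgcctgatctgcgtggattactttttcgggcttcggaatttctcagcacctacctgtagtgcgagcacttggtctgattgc
Slc1a2: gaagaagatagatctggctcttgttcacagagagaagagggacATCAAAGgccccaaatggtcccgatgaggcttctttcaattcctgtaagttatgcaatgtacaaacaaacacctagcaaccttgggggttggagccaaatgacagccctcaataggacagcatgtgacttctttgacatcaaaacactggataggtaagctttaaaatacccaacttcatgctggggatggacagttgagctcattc
The match in Slc1a2, ATCAAAG, which is CTTTGAT on the other strand, begins at position -207 from a start inside the annotated gene, and that gene overlapped between the genotypes. The Axin2 window ends just before the annotated gene and is rich in G and C (69.2%). Both Rnf43 windows lie inside the annotated gene, past its start at 87662722, so the bases before that start were not examined. The Rnf43 window shown is not rich in G and C (44.4%). The 4 motifs were not found in the Axin2 window, in either Rnf43 window, or in those of Glul and Oat. This says only that these letters are absent there.

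Lgr5, on chromosome 10 from 115450311 to 115587780 on the minus strand, was at 6.81, 4.85 and 5.51 CPM in WT against 5.43, 8.72 and 6.63 CPM in CgA-KO livers. Znrf3, on chromosome 11 from 5276324 to 5444847 on the minus strand, was at 10.2, 10.3 and 13.9 CPM in WT against 9.89, 15.6 and 11.4 CPM in CgA-KO livers. Both genes overlapped between the genotypes. The log2 fold change of Lgr5 was 0.29 (SE 0.27, 95% interval from -0.33 to 0.90, edgeR adjusted p = 0.53), and that of Znrf3 was 0.10 (SE 0.24, 95% interval from -0.45 to 0.65, edgeR adjusted p = 0.826). Without CgA-KO replicate 2 the log2 fold change of Znrf3 was -0.07. The difference between Rnf43 and Znrf3, which encode close relatives, was not tested. Their log2 ratio, Znrf3 to Rnf43, was -1.27, -1.35 and -0.86 in WT and -0.51, 0.01 and -0.48 in CgA-KO livers, without overlap.

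Tbx3 encodes a transcription factor of the T-box family that represses its targets and is switched on by beta-catenin in liver. It lies on chromosome 5 from 119670669 to 119684724 on the plus strand. WT livers held 46.7, 49.6 and 43.1 CPM and CgA-KO livers 38.5, 35.1 and 41.4 CPM, which left a gap of less than 2 CPM between the nearest livers. The log2 fold change of -0.28 (SE 0.16, edgeR adjusted p = 0.288) was not called, and it was -0.01 with library size alone.

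**Figure D2:**
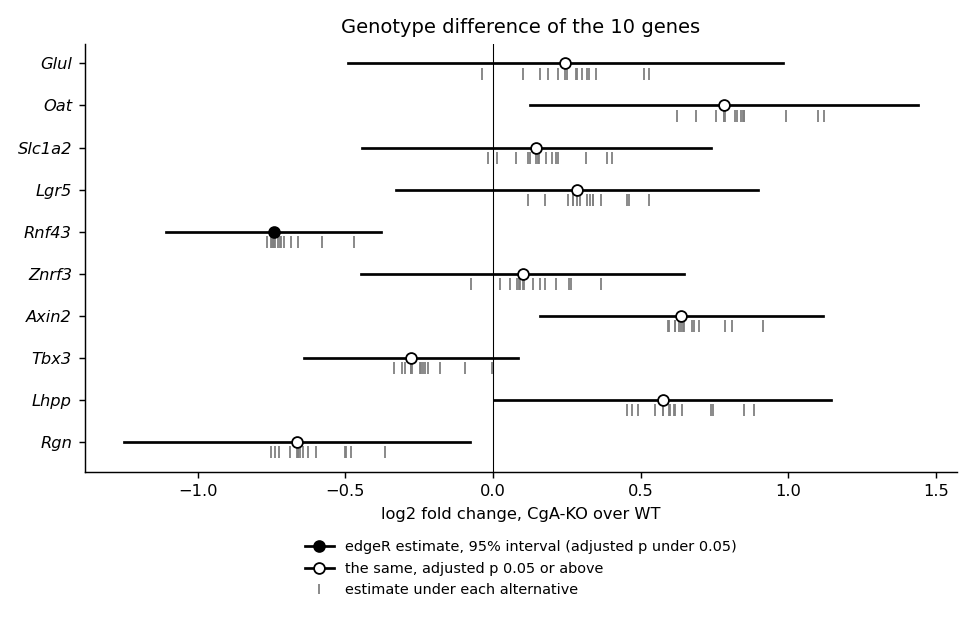
Log2 fold change of CgA-KO over WT for the 10 genes, with edgeR's estimate as a circle, its approximate 95% interval as a line, and the estimates under 15 alternative settings as grey ticks. The filled circle marks Rnf43, the gene with an adjusted p-value under 0.05, at -0.74, and ticks on both sides of 0 are seen for Glul, Slc1a2 and Znrf3.

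Compared per kilobase of the longest coding transcript, which makes levels comparable between genes, Rgn led the 10 genes in WT with 497 ± 106 CPM per kb, ahead of Glul with 295 ± 50.8 and Oat with 284 ± 104. In CgA-KO livers Oat led with 489 ± 24.9 CPM per kb, followed by Glul with 349 ± 136 and Rgn with 314 ± 56.8. Glul and Oat in WT, and Glul and Rgn in CgA-KO, did not differ beyond their spread. Lhpp followed in both genotypes, with 36.2 ± 11 in WT against 54.0 ± 10.1 in CgA-KO, and then Slc1a2 and Tbx3. The Wnt feedback genes were the lowest, from 5.88 ± 0.205 CPM per kb for Rnf43 down to 1.21 ± 0.211 for Lgr5 in WT. In CgA-KO livers Rnf43, at 3.52 ± 0.212, and Axin2, at 3.33 ± 0.591 CPM per kb, did not differ beyond their spread.

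The livers of CgA-KO mice also ranked alike across the genes. CgA-KO replicate 2 was the highest CgA-KO liver in 8 of the 10 genes, where it was so in 37.7% of all genes tested, and CgA-KO replicate 1 was the lowest in 9 of 10, against 28.2%. CgA-KO replicate 1 was the lowest in 8 of 16 other pericentral genes, 5 of 20 periportal genes and 17 of 22 general hepatocyte markers. CgA-KO replicate 2 was the highest in 9 of 16 other pericentral genes, 12 of 20 periportal genes and 20 of 22 general hepatocyte markers such as Alb. The high rank of this liver was therefore not particular to the pericentral genes. The hepatocyte markers took up 14.4% of its unscaled counts, against 9.11% to 10.7% in the other 5 libraries. In CPM, however, their sum was higher in WT replicate 2 (141500) than in CgA-KO replicate 2 (130400). WT replicate 2 was also the highest WT liver in 6 of the 10 genes, against 39.9% of all genes tested. It was so in 10 of 16 other pericentral genes, 9 of 20 periportal genes and 21 of 22 hepatocyte markers. In bulk tissue, fewer cells of a type and less RNA per cell cannot be told apart.

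The levels were therefore also expressed per 1000 counts of the 22 hepatocyte markers, a scale chosen after the data were seen. Alb weighed most in this sum. Its share was largest in CgA-KO replicate 1 (980818 of 1948519 marker counts) and smallest in CgA-KO replicate 3 (684194 of 1878930). On this scale 4 of the 10 genes had no overlap between the genotypes, 3 higher and 1 lower, against 21.9% of all genes (16.2% higher and 5.7% lower). Oat was at 5.47, 6.15 and 4.34 in WT against 11.2, 8.52 and 12.3 in CgA-KO livers, on average 2.00-fold higher in CgA-KO. Axin2 (0.0824 ± 0.0148 against 0.143 ± 0.0355) and Lhpp (0.511 ± 0.0599 against 0.869 ± 0.133) were also higher in every CgA-KO liver. Lhpp, which overlapped in CPM, did not overlap here. Rgn was at 7.46, 7.01 and 6.71 in WT against 4.52, 4.53 and 6.08 in CgA-KO livers. The scale widened the spread of the WT livers in 7 of the 10 genes, such as Rnf43 (from 1.07-fold in CPM to 1.48-fold), and narrowed it in 3, such as Rgn (from 1.49-fold to 1.11-fold). Rnf43 just overlapped, with 0.186 in WT replicate 2 and 0.188 in CgA-KO replicate 3, and Tbx3 overlapped as well. The exact two-sided permutation test gave p = 0.1 for Oat, Axin2, Lhpp and Rgn, the smallest that 3 against 3 allow, and p = 0.2 for Rnf43.

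**Figure D3:**
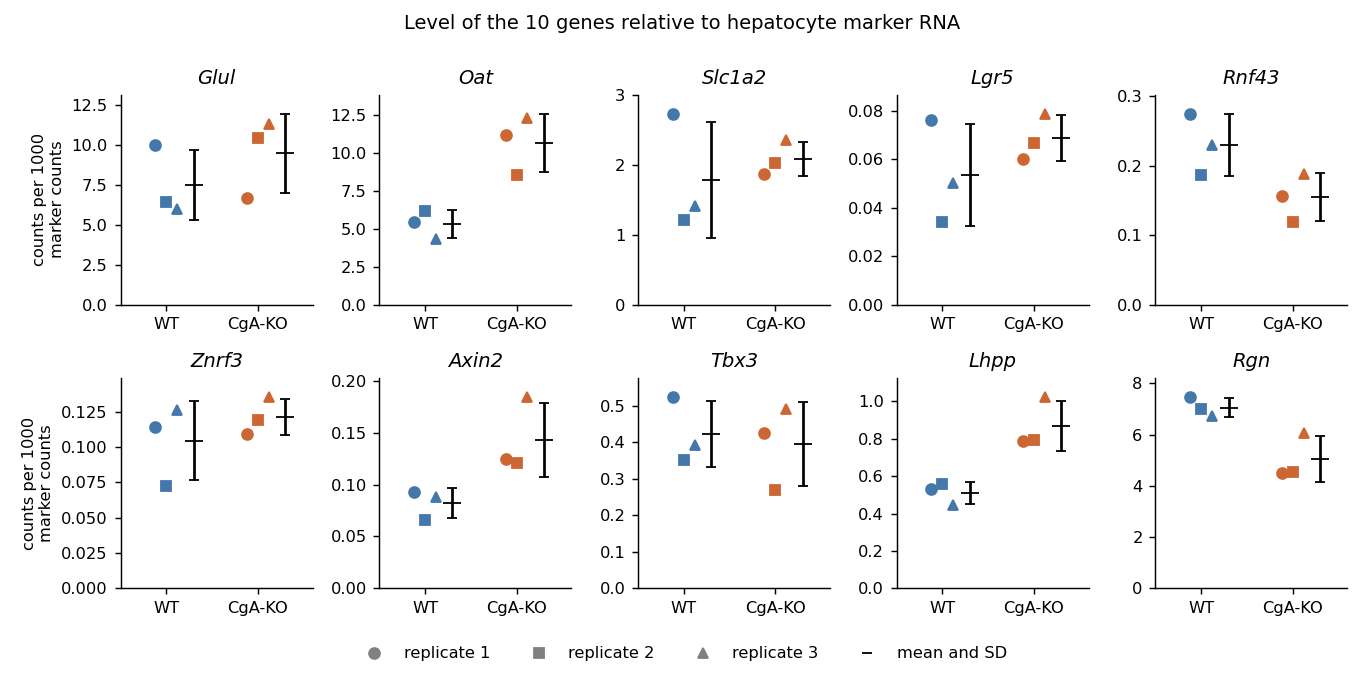
Level of the 10 genes as counts per 1000 summed counts of 22 hepatocyte markers (linear axes from 0) in every liver, with WT in blue, CgA-KO in orange, 1 symbol shape per replicate number, and black bars for the mean and SD of 3 livers. Oat, Axin2 and Lhpp are higher and Rgn is lower in every CgA-KO liver, and Rnf43 overlaps by a margin from 0.186 to 0.188.

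Other parts of the Wnt pathway were described from lists of genes with known roles. Among 20 ligands, R-spondins and secretion genes, 10 passed the filter and edgeR called 0 (2 were at an unadjusted p-value under 0.05, and DESeq2 called 0). Wnt2 and Wnt9b, the ligands made by liver endothelial cells, and Rspo3, the main R-spondin of the central vein, were all low. Wnt2 had 17, 35 and 27 counts in WT and 27, 24 and 44 in CgA-KO libraries (log2 fold change -0.06, edgeR adjusted p = 0.947), a sign that turned with library size alone (0.215) and with hepatocyte size factors (0.17). Wnt9b had 23, 25 and 26 counts in WT and 9, 4 and 23 in CgA-KO libraries, without overlap in CPM (log2 fold change -1.42, SE 0.70, edgeR adjusted p = 0.216). Its log2 fold change was -0.89 without CgA-KO replicate 2, and leaving out CgA-KO replicate 3 instead gave -2.35. Rspo3 was at 5.84 ± 1.65 CPM in WT against 6.73 ± 0.475 CPM in CgA-KO livers (edgeR adjusted p = 0.664). Wnt5b, the gene of the list with the highest mean over all 6 livers, differed by -0.58 on the log2 scale (edgeR adjusted p = 0.255). The 95% interval of Wnt2, from -1.10 to 0.97 on the log2 scale, shows how little these counts can resolve.

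Among 17 receptors and co-receptors, 11 were tested, and edgeR called 1 higher and 1 lower. Fzd4, a Frizzled receptor, fell from 38.2, 35.7 and 61.2 CPM in WT to 19.96, 20.1 and 15.9 CPM in CgA-KO livers, with a log2 fold change of -1.27 (SE 0.24, edgeR adjusted p = 0.0128). Lrp5, a co-receptor, rose from 41.0, 50.6 and 36.1 CPM to 88.9, 80.5 and 81.9 CPM, a log2 fold change of 0.98 (SE 0.19, edgeR adjusted p = 0.0144). Both genes separated the genotypes by a wide margin. Both lost the call without WT replicate 3 (adjusted p = 0.0508 for Fzd4 and 0.0888 for Lrp5), and Fzd4 also with library size alone (0.0576) and with hepatocyte size factors (0.0921). Lrp6, the other co-receptor, differed by -0.12 on the log2 scale (edgeR adjusted p = 0.716), with the sign turned by library size alone (0.16) and hepatocyte size factors (0.09). Lgr4, the R-spondin receptor found throughout the lobule, was at 48.0 ± 9.05 CPM in WT against 32.4 ± 1.49 CPM in CgA-KO livers, without overlap and not called (log2 fold change -0.57, edgeR adjusted p = 0.0764).

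Of 26 genes of signal transduction, 25 were tested, 1 was called higher and 1 lower. Ctnnb1, which encodes beta-catenin itself, was at 141 ± 7.88 and 116 ± 14 CPM (log2 fold change -0.28, edgeR adjusted p = 0.37). Tcf7l2, its main DNA-binding partner in hepatocytes, was at 14.97 ± 3.73 and 24.6 ± 3.52 CPM, without overlap and not called (log2 fold change 0.72, edgeR adjusted p = 0.0724). Tle2, a co-repressor, fell (log2 fold change -1.19, edgeR adjusted p = 0.0439), a call that was lost in 12 of 15 alternatives, among them the fits without WT replicate 1 or 3 or any CgA-KO library (adjusted p from 0.0879 to 0.171). Lef1, a TCF/LEF factor that T lymphocytes also express, rose from 2, 4 and 7 counts to 27, 231 and 21 counts (log2 fold change 3.83, edgeR adjusted p = 0.0264). Without CgA-KO replicate 2, which held most of these counts, the log2 fold change was 2.32 and not called (adjusted p = 0.0576). The call was also lost without each WT library in turn (0.0539 to 0.132). Tcf7, a factor of the same family and cells, had 1600 counts in that library and between 54 and 154 in the others.

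Part of the lymphocyte marker list moved with the genotype beside these genes. All 12 passed the filter, and 6 were called higher, led by Nkg7, Cd3d, Cd3e and Cd3g of T and natural killer cells. The B cell markers Cd79a (log2 fold change 0.01), Cd79b (0.86) and Ms4a1 (-0.03) were not called (edgeR adjusted p = 0.995, 0.589 and 0.985). No marker was called without WT replicate 2 or without WT replicate 3 (0 of 12), and 2 were without CgA-KO replicate 2. The summed level of the list was between 11.1 and 69.7 CPM in WT and between 106 and 204 CPM in CgA-KO livers, the highest being CgA-KO replicate 2. Their part in the values of Lef1 and Tcf7 was not tested. Among 11 other Wnt targets, 9 were tested and 1 was called, Cd44, which also serves as a leukocyte adhesion receptor (log2 fold change 3.07, edgeR adjusted p = 0.00484). Nkd1 and Sp5, targets that act within the pathway, overlapped, with log2 fold changes of 0.14 and -0.05. Of 12 Wnt inhibitors, most of them secreted, only 3 were tested. Of these, edgeR called 0 (0 were at an unadjusted p-value under 0.05, and DESeq2 called 0). Without CgA-KO replicate 2, 1 inhibitor was called. Notum, the tested inhibitor with the highest mean and a Wnt target itself, was at 21.9, 32.1 and 31.1 CPM in WT against 14.3, 29.1 and 10.8 CPM in CgA-KO livers (log2 fold change -0.65, edgeR adjusted p = 0.255), where CgA-KO replicate 2 stood among the WT livers.

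Other genes of the 2 zones also went both ways. Of 16 further pericentral genes, all tested, edgeR called 1 higher and 2 lower, and the median was -0.17 (log2 fold change). DESeq2 called 8, and 9 were at an unadjusted p-value under 0.05, 4 higher and 5 lower. The genotypes did not overlap in 8 of the 16, against 33.6% of all genes. Rhbg and Avpr1a were on the higher side, against 19% of all genes. Nr1i3, Ahr, Cyp7a1, Aldh1a1, Gas2 and Slco1b2 were on the lower side, against 14.6%. Cyp7a1, the rate-limiting enzyme of bile acid synthesis, fell from 396 ± 40.0 to 129 ± 56.2 CPM (log2 fold change -1.63, edgeR adjusted p = 0.0149). Nr1i3, which encodes the nuclear receptor CAR, fell by 1.22 on the log2 scale (edgeR adjusted p = 0.0496). Rhbg, an ammonia transporter that lies beside glutamine synthetase in pericentral cells, rose from 4.84, 2.64 and 1.36 CPM to 5.25, 15.6 and 11.2 CPM (log2 fold change 1.90, edgeR adjusted p = 0.044), so that WT replicate 1 and CgA-KO replicate 1 nearly met. All 3 calls were lost with hepatocyte size factors. That of Cyp7a1 was also lost without WT replicate 3 (adjusted p = 0.0691), that of Nr1i3 without any 1 library but WT replicate 2 (0.0829 to 0.191), and that of Rhbg without WT replicate 2 or 3, or CgA-KO replicate 2 or 3 (0.0891 to 0.176). Cyp2e1 and Cyp1a2, pericentral cytochromes P450 of drug metabolism, had log2 fold changes of -0.12 and 0.01 (edgeR adjusted p = 0.881 and 0.986).

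Of 20 periportal genes, all tested, 2 were called higher and 0 lower, with 6 at an unadjusted p-value under 0.05, 1 of them lower, and 5 called by DESeq2. The median log2 fold change was 0.08. The genotypes did not overlap in 6 of the 20, with Asl, Hal, Sds, Gldc and Ctsc higher and Otc lower. The called genes were Ctsc, a protease that leukocytes also express (1.54, edgeR adjusted p = 0.00484), and Gldc, an enzyme of glycine breakdown (1.12, edgeR adjusted p = 0.043), whose call was lost without any 1 library but CgA-KO replicate 2 (0.0536 to 0.124), and with hepatocyte size factors (0.0595). Gls2, the periportal glutaminase that opposes Glul, was at 207 ± 64.0 and 188 ± 6.02 CPM (edgeR adjusted p = 0.778). The log2 ratio of Glul to Gls2 within a liver was 2.73, 1.82 and 1.54 in WT against 1.63, 2.87 and 2.38 in CgA-KO livers, so the balance of these opposing enzymes overlapped between the genotypes.

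Around Glul, Oat and Slc1a2, a list of 22 genes of glutamate, glutamine, ornithine and proline handling had 20 tested, of which edgeR called 4 higher and 0 lower, with 1 lower at an unadjusted p-value under 0.05. DESeq2 called 8, and the median log2 fold change was 0.25. Got1, the cytosolic aspartate aminotransferase, rose from 87.6, 125 and 111 CPM to 321, 357 and 301 CPM (log2 fold change 1.596, edgeR adjusted p = 0.00513). It kept its call in all 15 alternatives. Aldh18a1, which makes the semialdehyde that Oat also produces on the way to proline and ornithine, rose from 23, 12 and 24 counts to 125, 270 and 113 counts (log2 fold change 2.51, edgeR adjusted p = 0.0149). Slc1a4, a transporter of neutral amino acids in the family of Slc1a2 (1.63, edgeR adjusted p = 0.024), was higher as well. The call of Aldh18a1 was lost without WT replicate 3 (adjusted p = 0.0784) or CgA-KO replicate 2 (0.0558), and that of Slc1a4 without WT replicate 3 or any CgA-KO library (0.0518 to 0.122), and with hepatocyte size factors (0.0523).

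**Figure D4:**
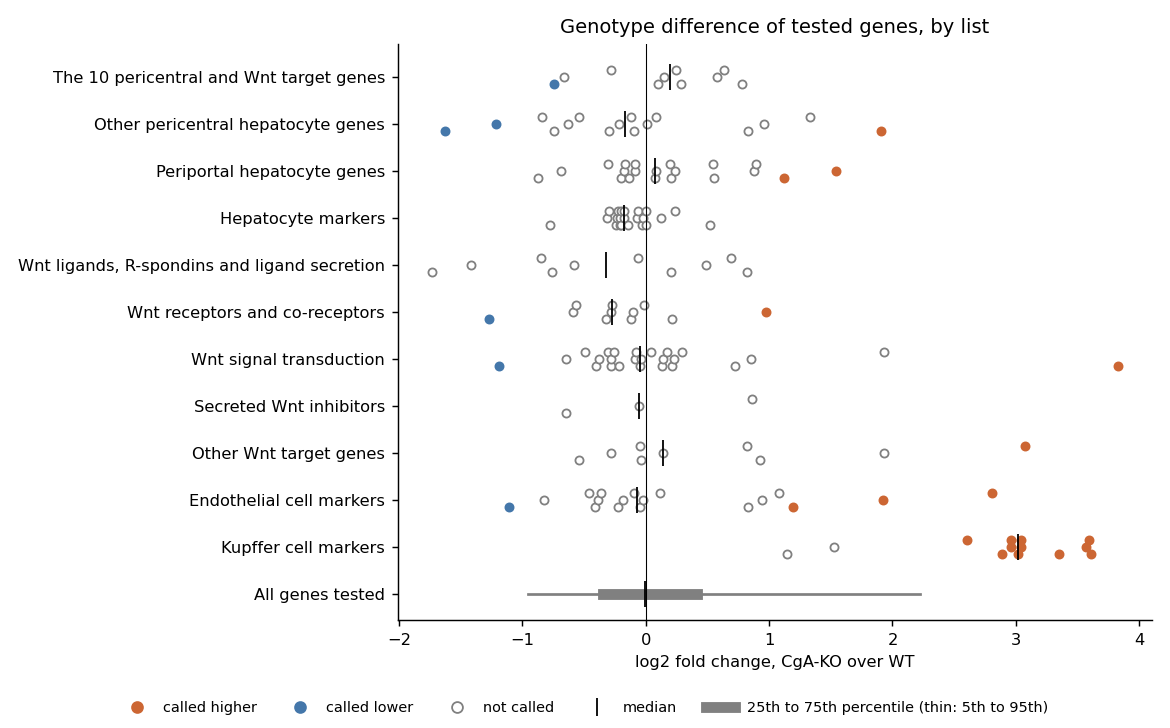
Log2 fold change of CgA-KO over WT for each tested gene of 11 lists, with 1 circle per gene, filled orange or blue where edgeR called it higher or lower, a black tick for the list's median, and for all 13867 genes a grey bar from the 25th to the 75th percentile. The 10 genes and the other hepatocyte lists lie around 0, and the Kupffer cell markers lie around 3.02.

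Markers of other liver cells show what else differed in the same tissue. The 22 hepatocyte markers had 0 calls in edgeR (2 were at an unadjusted p-value under 0.05, and DESeq2 called 2), a median log2 fold change of -0.18, and a summed level of 89330 to 141500 CPM in WT and 84160 to 130400 CPM in CgA-KO livers, so these markers were abundant in all 6 libraries. Of 13 Kupffer cell markers, 11 were called higher, led by Adgre1, Cd5l, Timd4 and Vsig4, and their sum was 147 to 365 CPM in WT and 1506 to 2128 CPM in CgA-KO livers. Of 18 endothelial markers, which mark the cells that supply Wnt ligands, 3 were called higher (Lyve1, Cdh5 and Plvap) and 1 lower (Clec4g), with sums of 277 to 349 and 295 to 407 CPM that overlapped. Stellate cell markers had 5 of 12 called higher (225 to 282 CPM in WT and 370 to 633 CPM in CgA-KO livers). Neutrophil and precursor markers had 2 of 3 tested called higher. Their sums over all 7 were 2.41 to 9.82 CPM in WT and 27.1 to 367 CPM in CgA-KO livers. CgA-KO replicate 2 alone gave 367 CPM, beside 27.1 and 32.7 CPM in CgA-KO replicates 1 and 3. Bile duct markers had 0 of 6 tested called, where 1 was at an unadjusted p-value under 0.05 and DESeq2 called 0. Their sums over all 8 were 34.5 to 46.7 CPM in WT and 33.5 to 90.5 CPM in CgA-KO livers, the highest again CgA-KO replicate 2. Of 4 red cell markers, Hba-a2 was called higher and Alas2 lower (118 to 291 and 333 to 475 CPM). These counts depended on single libraries. With each left out in turn, the number called ran from 7 (without WT replicate 2) to 11 for Kupffer cells, from 2 (without WT replicate 2 or 3, or CgA-KO replicate 1 or 2) to 6 for endothelial cells, from 0 (without WT replicate 3 or CgA-KO replicate 1) to 8 (without WT replicate 1) for stellate cells, from 0 (without any 1 WT library) to 5 (without CgA-KO replicate 1, where more markers passed the filter) for neutrophils, and from 0 (without WT replicate 2 or 3, or CgA-KO replicate 1 or 2) to 3 for red cells. Hepatocyte size factors left 1 stellate marker called. No marker on these lists was at 0 in every library. Their part in the values of the 10 genes was not tested.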

How the data were processed

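Libraries came from poly(A) RNA of 6 livers, 3 of WT and 3 of CgA-KO mice. The authors quantified the reads with Salmon 1.4.0, per the labels, at the transcript level against the GRCm38 mouse transcriptome, and deposited whole-number gene counts with no scaling for depth. How transcripts were summed to genes, and whether strand was used, is not given in the sources used here. Several of the 10 genes overlap another annotated gene, such as Teddm2 at Glul. Of the rows, 78 repeat a symbol, none of them of the 10 genes.

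The counts went into edgeR 4.0.16 (R 4.3.3), with filterByExpr (minimum count 10), TMM factors, a robust quasi-likelihood fit and a two-sided test of CgA-KO against WT. The study's methods name DESeq2, which was run as an alternative (1.42.0), as was limma-voom (limma 3.58.1). Other alternatives changed the scaling, the filter, the threshold or the libraries. The fit was also run on counts simulated from its own dispersions, with set changes and no outlying library. This checked that the code recovers such changes, and it does not bear on how the calls depend on scaling. Positions and transcript lengths are those of GENCODE M21 (GRCm38), and promoters those of RefSeq (GRCm38.p6). Figures were drawn with matplotlib 3.10.9.

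The 10 genes and the lists were chosen with earlier results of these data known. From each list the text names at most the 4 called genes of at least 1 CPM with the largest change, or the gene with the highest mean CPM over all 6 livers where none was called, and Wnt2, Wnt9b, Rspo3, Lgr4, Lrp6, Ctnnb1 and Tcf7l2 whatever the test gave. 1 gene of these lists is not reported here. A few further genes (Gulo, Nkd1, Sp5, Cyp2e1, Cyp1a2, Gls2, Tcf7, Cd79a, Cd79b and Ms4a1) were added after their values were seen. So were Ptprc, Avpr1a, Ahr, Aldh1a1, Gas2, Slco1b2, Asl, Hal, Sds and Otc. Replicates of a genotype differed by a chi-square per degree of freedom of 30.4 to 205, so each library counted as a sample. The detection floors say only which counts were taken as detectable, and they do not cover the counting error of genes above them.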

Additional observations from a re-analysis of the deposited data

How the results depend on the processing

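The count of called genes was 1726 (1193 higher, 533 lower). It was 2592 with DESeq2 (958 lower), which was fit to 19693 genes. At an adjusted p-value under 0.01 it was 360 (265 higher, 95 lower). With hepatocyte size factors 734 were called (622 higher, 112 lower, 84.7% higher), a scale that put the median of all genes at 0.16 (log2), and with library size alone 200 were lower. Leaving out each library in turn gave 394 to 2126 genes, 276 to 1563 higher and 118 to 563 lower. Of the 10 genes, 1 was called (0 higher, 1 lower). DESeq2 called 3 (1 higher, 2 lower), beside 2521 of the 13867 genes that edgeR tested. Library size alone called 3 (3 higher, 0 lower), beside 1493 of 13867 (1293 higher, 200 lower). Hepatocyte size factors called 1 (1 higher, 0 lower), beside 734 of 13867. A threshold of 0.01 called 0, beside 360 of 13867. With each library left out the counts were 0 to 1 in all, 0 to 1 higher and 0 to 1 lower. The call of Rnf43 was thus lost in 8 of 15 alternatives and Oat gained one in 4.

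Signs turned when a library was left out for Glul (-0.0374 to 0.529), Slc1a2 (-0.0163 to 0.404), Znrf3 (-0.0733 to 0.264), Lrp6 (-0.179 to 0.0362), Rspo3 (-0.0042 to 0.422) and Wnt2 (-0.431 to 0.267). The library was CgA-KO replicate 2 for Glul, Slc1a2, Znrf3 and Lrp6, and WT replicate 3 for Rspo3. With library size alone Wnt2 (0.215) and Lrp6 (0.16) turned, and with hepatocyte size factors Wnt2 (0.17) and Lrp6 (0.0900). The cause was not tested.

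Deviations of same-numbered livers correlated at 0.199, 0.0127 and -0.0659, and not every liver correlated best with its own number. With 3 livers per genotype these values cannot decide whether the numbers mark pairs, and the test took the livers as unpaired. With a replicate block 1498 genes and 1 of the 10 genes were called (1093 higher and 405 lower over all genes). Depth limits genes of few counts, such as Wnt2 and Wnt9b at 4 to 44 counts per library.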
